A study of Arabidopsis thaliana with 36 samples.

Results

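The protein translocation channel of the endoplasmic reticulum (ER) and the signal peptidase that trims proteins passing through it were followed through 10 Arabidopsis thaliana genes. The loci were listed by their known subunit names: SEC61G2 (AT5G50460) and SEC61G1 (AT4G24920) for the Sec61 gamma subunit, SEC61B2 (AT3G60540) and SEC61B1 (AT2G45070) for beta, AT2G34250 and AT1G29310 for alpha, SEC62 (AT3G20920), and SPC22A (AT3G05230), SPC22B (AT5G27430) and SPC25 (AT2G39960) of signal peptidase. All 10 were among the 37336 loci counted, and 6 of them were among the 10480 loci with enough counts to be tested. mRNA of whole seedlings, 12 days old, was sequenced from its 3' end after 6 h of soaking with an inducer of ER stress or with the solvent DMSO alone (mock). The double knockouts bzip17/28 (bZIP17 and bZIP28 lost), bzip28/60 (bZIP28 and bZIP60 lost), bzip17/60 (bZIP17 and bZIP60 lost) and s1p/s2p (S1P and S2P lost) each received tunicamycin (Tm, 5 µg/ml) or mock. Wild type (WT) received Tm at 5 µg/ml, dithiothreitol (DTT) at 2 mM, azetidine-2-carboxylate (AZC) at 5 mM, or mock. The 12 groups held 3 libraries each, 36 in all. No allele names and no number of lines per genotype were given in the sources used here.

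The Sec61 channel is a complex of an alpha subunit, which forms the pore, and the small beta and gamma subunits. New secretory proteins enter through it, signal peptidase then removes their signal peptide, and SEC62 helps proteins that arrive after translation. When misfolded proteins gather in the ER, the unfolded protein response raises the transcription of folding, translocation and degradation genes. In plants its factors are bZIP28 and bZIP17, which Golgi proteases, S1P and S2P among them, release from the membrane, and bZIP60, made after the RNase IRE1 splices its mRNA. Which protease acts on which factor was not tested here. Tm blocks N-glycosylation, DTT reduces disulfide bonds, and AZC is a proline analogue that enters proteins in place of proline.

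The 200 bases before the RefSeq start of 4 genes are shown because these genes rose together with Tm (SEC61G2, SEC61B2, SPC22A and SPC22B). Each runs 5' to 3' on the gene's own strand, is taken from the RefSeq genome TAIR10.1, and is free of other annotated genes.
SEC61G2, chr5:20552671-20552870, minus strand: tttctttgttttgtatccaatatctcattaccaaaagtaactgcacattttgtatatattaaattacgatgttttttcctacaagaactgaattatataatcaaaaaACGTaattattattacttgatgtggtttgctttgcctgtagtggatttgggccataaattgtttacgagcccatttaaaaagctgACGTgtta
SEC61B2, chr3:22375917-22376116, minus strand: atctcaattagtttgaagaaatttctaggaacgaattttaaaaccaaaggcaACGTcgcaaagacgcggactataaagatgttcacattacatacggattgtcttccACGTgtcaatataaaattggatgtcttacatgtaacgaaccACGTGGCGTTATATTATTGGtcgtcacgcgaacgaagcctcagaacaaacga
SPC22A, chr3:1491884-1492083, plus strand: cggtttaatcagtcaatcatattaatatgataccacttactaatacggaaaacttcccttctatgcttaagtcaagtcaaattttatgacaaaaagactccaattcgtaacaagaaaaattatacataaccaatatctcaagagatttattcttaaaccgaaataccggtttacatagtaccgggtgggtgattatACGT
SPC22B, chr5:9687139-9687338, plus strand: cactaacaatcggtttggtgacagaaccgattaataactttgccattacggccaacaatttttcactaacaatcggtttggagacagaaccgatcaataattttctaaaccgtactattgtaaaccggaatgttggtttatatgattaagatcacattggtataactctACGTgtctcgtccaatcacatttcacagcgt
Capitals mark matches to the motifs searched on both strands. The ER stress response element ERSE, spelled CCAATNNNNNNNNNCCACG, was found in SEC61B2 alone among the 10 genes, as CGTGGCGTTATATTATTGG on the strand shown, 51 to 33 bases before the start. Its first 3 bases overlap the last of the 3 ACGT cores of that window. ERSE stood in 0.277% of the 27443 windows of this length before protein-coding genes. The ACGT core, found in 38.4% of all windows, occurred 3 times in SEC61B2, 2 times each in SEC61G2, AT2G34250 and AT1G29310, and 1 time each in SEC62, SPC22A and SPC22B. SEC61G1, SEC61B1 and SPC25 held none of the motifs. ERSE with 10 bases between its parts, a spacing first written by mistake (0.0255% of all windows), ERSE-II (ATTGGNCCACG, 0.0474%), the UPR element (TGACGTGG or TGACGTGA, 1.6%, which contains the ACGT core) and pUPRE-III (TCATCG, 5.1%) matched in 0 of the 10. A match is a string of letters, not a measured binding site.

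Libraries held 1278322 to 2810235 assigned counts (median 2011039), and the biological coefficient of variation was 28.2% among the WT Tm libraries against 5.59 to 14.3% in the other 11 groups. Levels are given as TMM-scaled CPM, assigned counts relative to library size, so 3 counts over the libraries of a group correspond to 0.499 CPM. Of the genes named by the genotypes, no library of bzip17/28 or bzip17/60 held more than 3 counts of BZIP17, which had 5 to 33 elsewhere. BZIP28 had 0 to 1 in bzip17/28, 23 to 30 in bzip28/60 and 26 to 122 elsewhere. BZIP60 averaged 29.8 to 35.9 CPM in the groups of bzip28/60 and bzip17/60, against 124 ± 14.9 CPM in WT mock (SD, n = 3), and reads outside a disrupted part of a gene do not check a mutant. S1P and S2P had 0 or 1 count in all 36 libraries, so these counts do not check the s1p/s2p label. The shoot markers summed to 18968 to 30561 CPM and the root markers to 10.3 to 215 CPM over the 36 libraries, so both organs were present in the whole seedlings.

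On TAIR10.1 the loci of the gamma subunit are chr5:20551132-20552670 (SEC61G2) and chr4:12819164-12820968 (SEC61G1), and those of beta are chr3:22374864-22375916 (SEC61B2) and chr2:18586974-18588452 (SEC61B1), all on the minus strand. The alpha genes are at chr2:14462023-14464879 (AT2G34250) and chr1:10252241-10254792 (AT1G29310), both plus, and SEC62 is at chr3:7328576-7330751, minus. SPC22A is at chr3:1492084-1495397 and SPC22B at chr5:9687339-9690355, both plus, and SPC25 at chr2:16681296-16683718, minus. The genes differed in how many counts they kept and in how many of their bases lie in only 1 transcript model. How far the models or the level of expression set these counts was not tested. The deposited counts are per model, and a read that 2 models of a gene share was set aside as ambiguous (39.9 to 42.8% of assigned and ambiguous reads). SEC61G2, SPC22B and SPC25 have 1 model each, so 100% of their exonic bases lie in only 1 model, and they kept 28795, 1954 and 2988 counts over the 36 libraries. Overlaps with other genes, given below, do not enter these percentages. SPC22A has 2 models, with 77.9% of its exonic bases in only 1 of them, and kept 1342 counts. SEC61B2 (37.7% of exonic bases in 1 model, 399 counts) and SEC61G1 (33.3%, 333 counts) were measured thinly. SEC61B1 (10.1%) kept 45 counts, the alpha genes AT2G34250 (19%) and AT1G29310 (11.5%) kept 5 and 6, and SEC62 (0.224%) kept 0. These last 4 genes were not tested. Reads came from the 3' end. Of the last 300 exonic bases of a model, 0 to 153 lay in only 1 model for SEC61G1, depending on the model. They were 0 to 88 for SEC61B2, 0 for SEC61B1 and 5 to 300 for SPC22A. In genes with several models, a shift between models and a change of the gene cannot be told apart. CPM values of different genes are therefore not compared as amounts of RNA. Shares within a pair of paralogs, given below, are shares of counted reads and are read only between groups.

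**Figure D1:**
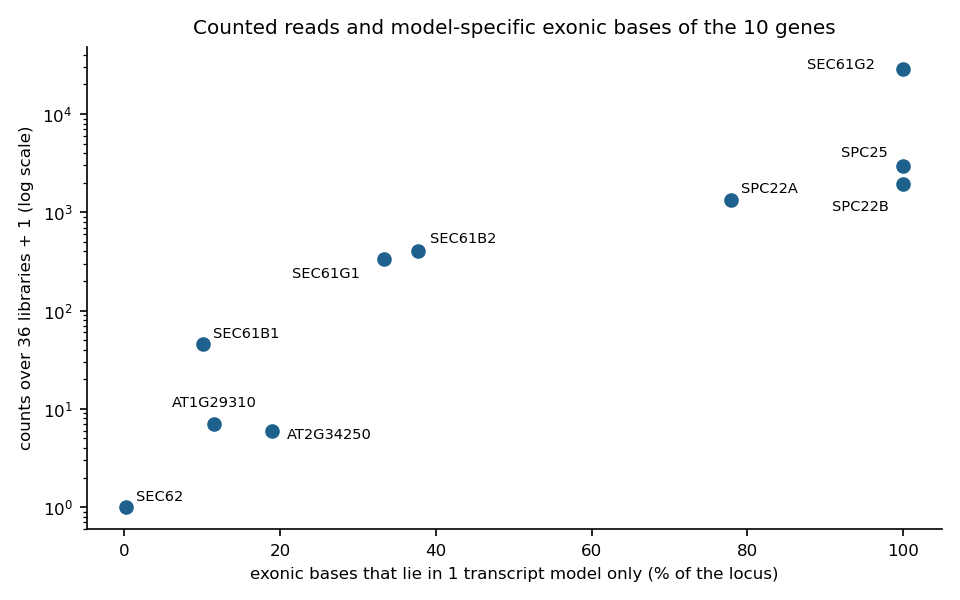
Counts summed over the 36 libraries (plus 1, log scale) against the share of a locus's exonic bases, in percent, that lie in only 1 transcript model, for the 10 genes. The 4 genes with less than 20% of such bases kept 0 to 45 counts, and the 3 genes with 100% kept 1954 to 28795.

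SEC61G2, a gene for the gamma subunit, was the best measured of the 10, with 320 to 2071 counts per library. With Tm its CPM was 581, 693 and 706 in bzip17/28, 351, 355 and 310 in bzip28/60, 602, 560 and 625 in bzip17/60, and 360, 369 and 454 in s1p/s2p, against 815, 769 and 700 in WT. Under mock it was 163, 167 and 161 in bzip17/28, 204, 225 and 221 in bzip28/60, 181, 192 and 188 in bzip17/60, and 165, 193 and 170 in s1p/s2p, against 264, 276 and 227 in WT. In all 5 genotypes every Tm library lay above every mock library. In WT, DTT gave 698, 803 and 784 CPM and AZC gave 457, 388 and 515 CPM, also all above WT mock.

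The SEC61G2 rise with Tm in WT was 1.57 ± 0.12 on the log2 scale (edgeR quasi-likelihood, standard error, n = 3 libraries a group, Benjamini-Hochberg adjusted p = 3.25e-13), a ratio of group means of 2.98. DTT gave 1.58 ± 0.12 (edgeR, adjusted p = 2.1e-13) and AZC 0.83 ± 0.12 (edgeR, adjusted p = 3.64e-06). Tm and DTT each exceeded AZC by 0.75 ± 0.12. The Tm response was smallest in bzip28/60, at 0.65 ± 0.12 (edgeR, adjusted p = 0.000531). It was 2.01 ± 0.12 in bzip17/28, 1.67 ± 0.12 in bzip17/60 and 1.16 ± 0.12 in s1p/s2p. Tested as a difference of responses, bzip28/60 fell short of WT by -0.93 ± 0.17 (edgeR, adjusted p = 0.000564), of bzip17/60 by -1.02 ± 0.17 (adjusted p = 0.000285) and of bzip17/28 by -1.37 ± 0.17 (adjusted p = 2.55e-07). The s1p/s2p response was below that of bzip17/28 by -0.85 ± 0.17 (edgeR, adjusted p = 0.00457). Differences from the WT response were not called for bzip17/28 (0.44 ± 0.17, adjusted p = 0.142), bzip17/60 (0.09 ± 0.17, adjusted p = 0.81) or s1p/s2p (-0.41 ± 0.17, adjusted p = 0.189).

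Unstressed SEC61G2 was lower than in WT mock in bzip17/28 (-0.64 ± 0.12, edgeR adjusted p = 0.000201) and s1p/s2p (-0.54 ± 0.12, adjusted p = 0.00422). In bzip17/60 it was lower by -0.45 ± 0.12 (edgeR, adjusted p = 0.0165). That call was lost without bzip17/60 mock 1 (-0.42, adjusted p = 0.0791), bzip17/60 mock 2 (-0.47, adjusted p = 0.0538), WT mock 1 (-0.42, adjusted p = 0.0764) or WT mock 2 (-0.38, adjusted p = 0.08). In bzip28/60 mock the difference was -0.24 ± 0.12 and was not called (adjusted p = 0.271), although its 3 libraries lay below the 3 of WT mock. Placed in order of mean, the 12 groups ran from 762 CPM in WT DTT and WT Tm, 660 in bzip17/28 Tm, 596 in bzip17/60 Tm, 453 in WT AZC, 394 in s1p/s2p Tm and 339 in bzip28/60 Tm to 256 in WT mock and 217, 187, 176 and 164 in the mock groups of bzip28/60, bzip17/60, s1p/s2p and bzip17/28. Of the 11 neighbouring pairs in this order 5 did not overlap, and bzip28/60 Tm overlapped neither s1p/s2p Tm above it nor WT mock below it.

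**Figure D2:**
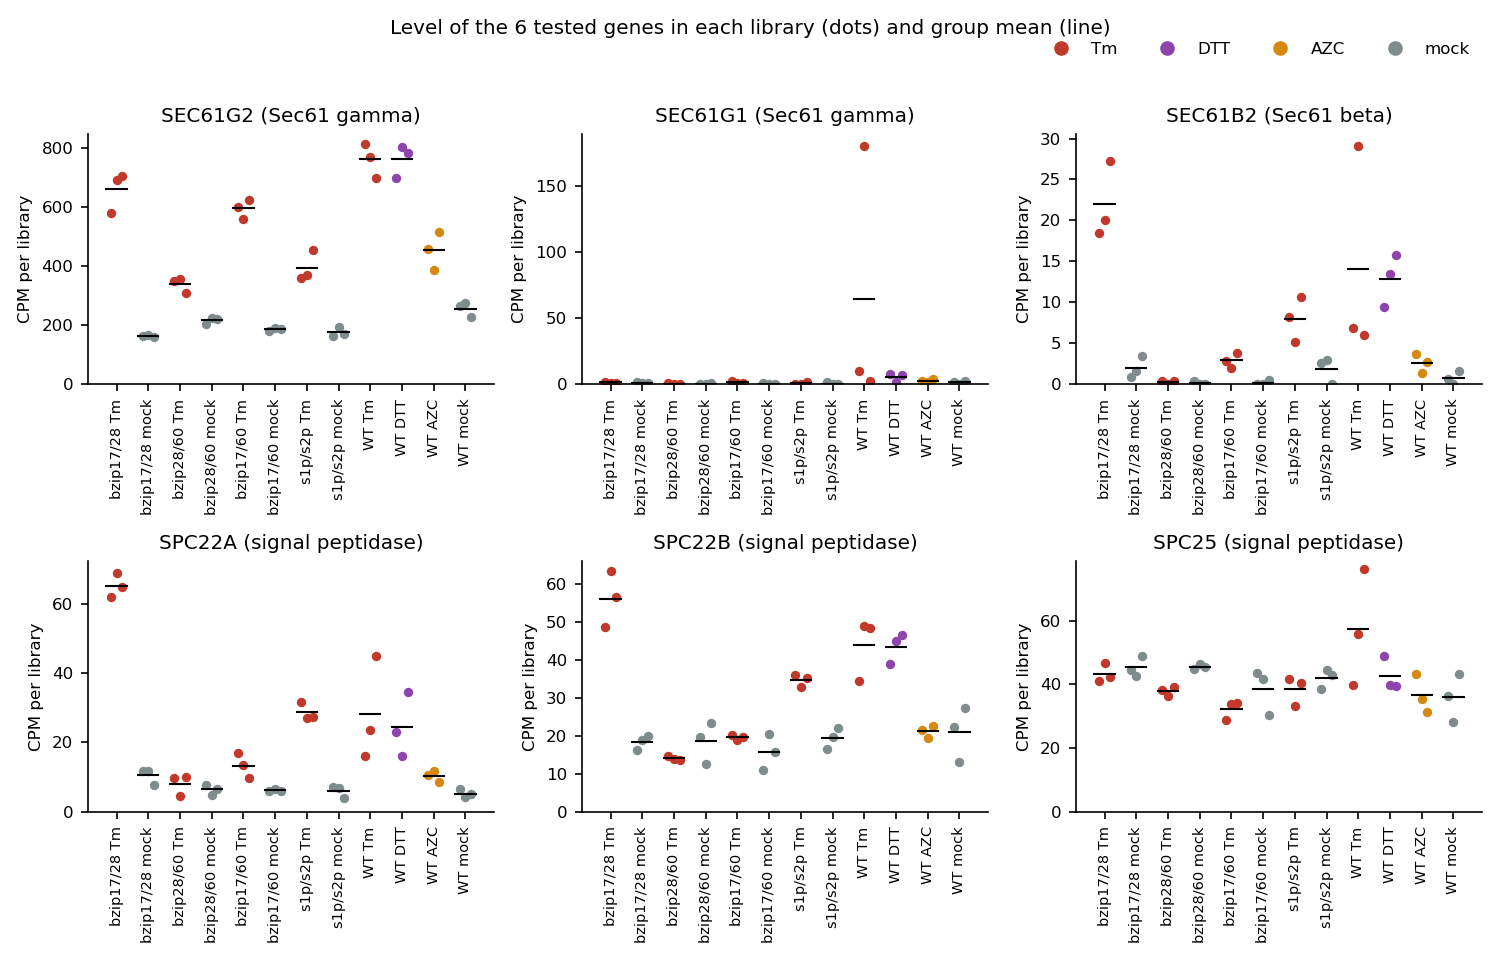
CPM of each library (dots, coloured by treatment) and the group mean (line) for the 6 tested genes in the 12 groups. SEC61G2 runs from 161 to 815 CPM with every Tm library above the mock libraries of its genotype, SPC22A and SEC61B2 are highest in bzip17/28 Tm by group mean, and the SEC61G1 mean in WT Tm rests on 1 library at 180 CPM.

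SEC61G1, the other of the 2 gamma genes followed here, had 0 to 13 counts in 35 libraries and 229 counts in WT Tm 2. In CPM the WT Tm libraries held 9.97, 180 and 2.19, against 7.66, 1.93 and 7.1 with DTT, 2.14, 1.39 and 4 with AZC and 1.81, 0 and 2.77 with mock. No library of a mutant passed 2.26 CPM. SEC61G1 had enough counts to be tested only through libraries given an inducer, so a called rise with Tm was partly favoured in advance. The fit called Tm above mock in WT (5.21 ± 0.89, edgeR adjusted p = 5.23e-05), above DTT (3.47, adjusted p = 0.000416) and above AZC (4.60, adjusted p = 8.33e-05). Without WT Tm 2 these became 1.74 (adjusted p = 0.152), -0.01 (adjusted p = 0.994) and 1.12 (adjusted p = 0.349), and none was called. AT4G24910, which overlaps SEC61G1 by 43 bases on the same strand, had 0 to 2 counts per library and 2 in WT Tm 2. SEC61G1 took 19% of the summed counts of SEC61G1 and SEC61G2 in WT Tm 2 and 0 to 1.21% in the other 35 libraries, and these genes share 0 runs of 50 bases. This is a share of counted reads, since 33.3% of SEC61G1 and 100% of SEC61G2 exonic bases lie in only 1 model.

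SEC61B2 encodes the beta subunit and is the gene with the ERSE match above. Its counts were low. It had enough counts to be tested only through libraries given an inducer, so a called rise with Tm or DTT was partly favoured in advance. Tm libraries held 40, 53 and 80 counts in bzip17/28, 1, 0 and 1 in bzip28/60, 5, 5 and 8 in bzip17/60 and 18, 13 and 18 in s1p/s2p, against 9, 37 and 11 in WT. Mock libraries held 2, 4 and 8 in bzip17/28, 1, 0 and 0 in bzip28/60, 0, 0 and 1 in bzip17/60, and 5, 5 and 0 in s1p/s2p, against 1, 0 and 3 in WT. WT libraries held 16, 21 and 20 with DTT and 7, 2 and 4 with AZC. Every Tm library exceeded every mock library in bzip17/28, bzip17/60, s1p/s2p and WT, and the bzip28/60 groups overlapped.

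Tm raised SEC61B2 to 14 ± 13.1 CPM in WT Tm, against 0.756 ± 0.842 in WT mock (SD, n = 3, log2 change 3.94 ± 0.72, edgeR adjusted p = 0.000138), and DTT raised it to 12.9 ± 3.22 CPM (3.87 ± 0.72, adjusted p = 8.81e-05). WT Tm 2 held 37 of the 57 WT Tm counts, and without it the Tm change was 2.88 (edgeR, adjusted p = 0.0103). Without WT mock 3 the Tm change was 5.13 and the DTT change 5.05, and both stayed called. With AZC it stood at 2.6 ± 1.18 CPM, a change of 1.66 ± 0.97 that was not called (edgeR, adjusted p = 0.42). DTT exceeded AZC by 2.21 ± 0.57 (edgeR, adjusted p = 0.00441). Tm exceeded AZC by 2.29 ± 0.57 (adjusted p = 0.0036), and without WT Tm 2 by 1.21 (adjusted p = 0.207). In bzip17/28 Tm raised SEC61B2 to 22 ± 4.66 CPM, against 1.99 ± 1.33 with mock (3.43 ± 0.48, edgeR adjusted p = 7.38e-07), and without bzip17/28 mock 3 the change was 4.05 and stayed called. In s1p/s2p it stood at 8.01 ± 2.81 with Tm and 1.82 ± 1.59 with mock (2.14 ± 0.62, edgeR adjusted p = 0.0385). This s1p/s2p call was lost without mock 1 (2.54, adjusted p = 0.0519), mock 3 (1.50, adjusted p = 0.295), Tm 1 (2.11, adjusted p = 0.102) or Tm 3 (1.90, adjusted p = 0.145).

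In bzip17/60 SEC61B2 had 18 counts with Tm and 1 with mock, a ratio of 17.3 (95% counting interval 2.73 to 720) that the fit did not call (edgeR, adjusted p = 0.0791). In bzip28/60 it had 2 counts with Tm and 1 with mock, so no fold can be given. Under Tm it was 46.1-fold lower in bzip28/60 than in WT (2 counts against 57, 95% counting interval 12.2 to 389, edgeR adjusted p = 2.54e-06). The fitted difference was -5.29 ± 0.78, and without WT Tm 2, which held 37 of the 57 counts, it was -4.22 (edgeR, adjusted p = 0.000354). Intervals and floors cover counting error only, not the spread between libraries. The difference of Tm responses was not called for SEC61B2 in any of the 8 such contrasts, and the bzip28/60 response was set by 3 counts in all.

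SEC61B1, the other beta gene among the 10, had 0 to 8 counts per library and no called value. It totalled 11 counts in WT Tm, 7 in WT DTT and 2 each in WT AZC and WT mock. WT Tm stood at 6.14 times WT mock by counts (95% counting interval 1.34 to 57), with 0, 3 and 8 counts in the Tm libraries, against 2, 0 and 0 with mock. SEC61B2 made up 98.9% of the counts of the beta pair in bzip17/28 Tm, 94.2% in s1p/s2p Tm and 83.8% in WT Tm. In bzip28/60 Tm it was 28.6% of 7 counts. These are shares of counted reads, since 37.7% of SEC61B2 and 10.1% of SEC61B1 exonic bases lie in only 1 model. The alpha genes among the 10, for the pore itself, had 0 to 2 counts per library each and SEC62 had 0 in all 36. With so few counts, no change of theirs was detectable. Few of their bases lie in only 1 model and shared reads were set aside, but the part of this in the low counts was not tested.

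The 3 signal peptidase genes kept 1342 to 2988 counts. SPC22A and SPC22B, paralogs for one accessory subunit, share 0 runs of 50 bases. SPC22A had 62.1, 69 and 64.8 CPM in bzip17/28 Tm, against 11.9, 11.9 and 7.79 in bzip17/28 mock. In bzip28/60 it had 9.67, 4.66 and 10.1 with Tm, against 7.78, 4.82 and 6.66 with mock. In bzip17/60 it had 16.9, 13.5 and 9.64 with Tm, against 6.06, 6.65 and 6.09 with mock. In s1p/s2p it had 31.6, 27.1 and 27.3 with Tm, against 7.22, 6.95 and 4.06 with mock. Tm and mock libraries overlapped in bzip28/60 and in no other mutant. WT held 16.1, 23.6 and 45 CPM with Tm, 23, 16.1 and 34.7 with DTT and 10.7, 11.8 and 8.68 with AZC, against 6.65, 4.12 and 4.99 with mock, and each inducer's libraries lay above the mock libraries.

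On the log2 scale SPC22A rose by 2.46 ± 0.34 with Tm (edgeR, adjusted p = 1.66e-06) and 2.18 ± 0.35 with DTT (adjusted p = 1.02e-05) in WT. The AZC change of 0.97 ± 0.41 was not called (edgeR, adjusted p = 0.192). Tm exceeded AZC by 1.49 ± 0.30 (edgeR, adjusted p = 0.000462), by 0.92 without WT Tm 3 (adjusted p = 0.0391). DTT exceeded AZC by 1.21 ± 0.31 (edgeR, adjusted p = 0.00471), by 0.91 without WT DTT 3 (adjusted p = 0.0692). Tm raised SPC22A by 2.63 ± 0.25 in bzip17/28 (edgeR, adjusted p = 6.44e-11) and 2.25 ± 0.31 in s1p/s2p (adjusted p = 1.37e-06). The changes of 0.34 ± 0.35 in bzip28/60 (adjusted p = 0.825) and 1.07 ± 0.34 in bzip17/60 (adjusted p = 0.0903) were not called.

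The SPC22A response of bzip28/60 was below that of bzip17/28 by -2.28 ± 0.44 (edgeR, adjusted p = 0.000903) and below that of WT by -2.11 ± 0.51 (adjusted p = 0.011). Without bzip28/60 mock 1 the difference from WT was -1.94 (adjusted p = 0.0555), and without WT Tm 3 it was -1.55 (adjusted p = 0.056). The bzip17/60 response differed by -1.39 ± 0.51 from WT (edgeR, adjusted p = 0.118) and by -1.56 ± 0.45 from bzip17/28 (adjusted p = 0.0592), neither called. Compared within Tm, SPC22A was 1.16 ± 0.23 higher in bzip17/28 than in WT (edgeR, adjusted p = 0.000111), with all 3 mutant libraries above all 3 of WT. Under mock the same genotypes stood 0.99 ± 0.38 apart, not called (adjusted p = 0.0681). The gene AT3G05240 overlaps SPC22A by 1698 bases on the opposite strand and had 0 to 4 counts per library.

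SPC22B differed less between groups. It had 48.6, 63.3 and 56.6 CPM in bzip17/28 Tm, against 16.3, 18.8 and 19.9 in bzip17/28 mock. In bzip28/60 it had 14.7, 14 and 13.5 with Tm, against 19.8, 12.5 and 23.3 with mock, and in bzip17/60 20.3, 18.8 and 19.8 with Tm, against 11, 20.4 and 15.7 with mock. These 2 mutants' Tm and mock libraries overlapped. In s1p/s2p it had 36.1, 32.9 and 35.1 with Tm, against 16.5, 19.7 and 22.1 with mock. WT held 34.5, 48.8 and 48.3 with Tm, 38.9, 45 and 46.6 with DTT and 21.4, 19.5 and 22.7 with AZC, against 22.4, 13.1 and 27.2 with mock. The Tm and DTT libraries lay above the mock libraries and the AZC libraries lay among them.

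SPC22B rose by 1.05 ± 0.21 with Tm (edgeR, adjusted p = 0.000489) and 1.03 ± 0.21 with DTT (adjusted p = 0.000381) in WT, and exceeded its AZC level by 1.05 ± 0.21 (adjusted p = 0.000418) and 1.03 ± 0.21 (adjusted p = 0.00044). Fitted on the WT Tm and WT mock libraries alone, the Tm rise was 1.04 and not called (edgeR, adjusted p = 0.0707). With AZC it averaged 21.2 ± 1.61 CPM, against 20.9 ± 7.17 with mock (SD, n = 3). Tm raised it by 1.61 ± 0.19 in bzip17/28 (edgeR, adjusted p = 1.66e-08) and 0.83 ± 0.21 in s1p/s2p (adjusted p = 0.0105), which became 0.72 without s1p/s2p mock 1 (adjusted p = 0.0828). The changes of -0.41 ± 0.22 in bzip28/60 (adjusted p = 0.514) and 0.30 ± 0.23 in bzip17/60 (adjusted p = 0.682) were not called. As differences of responses, bzip28/60 was below WT by -1.47 ± 0.31 (edgeR, adjusted p = 0.00341) and below bzip17/28 by -2.03 ± 0.30 (adjusted p = 8.26e-06). The bzip17/60 response was below that of bzip17/28 by -1.32 ± 0.30 (edgeR, adjusted p = 0.00832), by -1.06 without bzip17/60 mock 2 (adjusted p = 0.103). The gene AT5G27440 overlaps SPC22B by 858 bases on the opposite strand and had 5 to 24 counts per library. The strand setting of the counting was not given in the sources used here.

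SPC22A made up more of the SPC22 pair in Tm libraries than in mock libraries, by group mean, in all 5 genotypes. SPC22A made up 53.9 ± 2% of the pair's counts in bzip17/28 Tm, against 36.3 ± 7.32% in bzip17/28 mock (SD, n = 3). It made up 45.2 ± 1.41% in s1p/s2p Tm, against 24 ± 7.67% in s1p/s2p mock, and 37.6 ± 9.26% in WT Tm, against 20.8 ± 4.62% in WT mock. With DTT the WT share was 35.4 ± 8.34% and with AZC 32.9 ± 5.07%. In these 3 genotypes and for all 3 inducers each treated library had a higher share than every mock library of its genotype. The shares were 35.8 ± 9.53% in bzip28/60 Tm, against 26.1 ± 3.33% in bzip28/60 mock, and 40 ± 6.52% in bzip17/60 Tm, against 29.3 ± 5.58% in bzip17/60 mock, with overlap in both. The shares are of counted reads and were not tested.

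**Figure D3:**
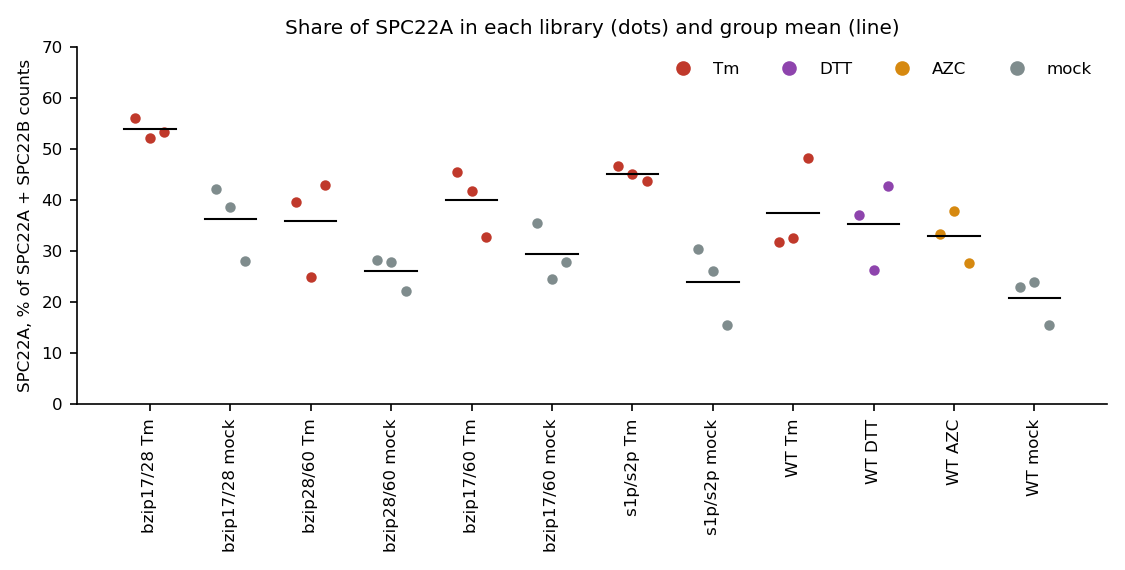
SPC22A counts in percent of SPC22A plus SPC22B counts in each library (dots) with the group mean (line). The 3 bzip17/28 Tm libraries hold 52.1 to 56.1% and the 3 WT mock libraries 15.5 to 24%.

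SPC25, a small accessory subunit that contacts the channel in yeast and mammals, behaved otherwise. WT held 39.9, 55.9 and 76.2 CPM with Tm, 48.9, 39.8 and 39.5 with DTT and 43.3, 35.5 and 31.4 with AZC, against 36.3, 28.2 and 43.2 with mock. In the mutants Tm libraries ran from 28.8 to 46.6 CPM and mock libraries from 30.5 to 48.9. Of the 3 WT Tm libraries 2 lay above every WT mock library, and in bzip28/60 all 3 Tm libraries lay below the 3 mock libraries. The fit called the Tm rise in WT (0.69 ± 0.18, edgeR adjusted p = 0.00731) and Tm over AZC (0.65 ± 0.18, adjusted p = 0.0096). Without WT Tm 3 the rise was 0.40 (adjusted p = 0.166) and without WT mock 2 it was 0.54 (adjusted p = 0.064). Tm over AZC was 0.37 without WT Tm 3 (adjusted p = 0.185) and 0.54 without WT AZC 3 (adjusted p = 0.0704).

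The DTT change of SPC25 (0.25 ± 0.19, edgeR adjusted p = 0.427) and the Tm changes in bzip17/28 (-0.06 ± 0.17, adjusted p = 0.889), bzip28/60 (-0.26 ± 0.17, adjusted p = 0.644), bzip17/60 (-0.25 ± 0.18, adjusted p = 0.659) and s1p/s2p (-0.13 ± 0.18, adjusted p = 0.845) were not called. Its response was below that of WT in bzip28/60 by -0.95 ± 0.25 (edgeR, adjusted p = 0.0222) and in bzip17/60 by -0.93 ± 0.26 (adjusted p = 0.0307). The bzip28/60 difference was -0.90 without bzip28/60 Tm 2 (adjusted p = 0.0523), -0.80 without WT mock 2 (adjusted p = 0.0782) and -0.66 without WT Tm 3 (adjusted p = 0.121). The bzip17/60 call was lost when any one of these was left out: bzip17/60 mock 1 or 2, bzip17/60 Tm 1 or 3, WT mock 1 or 2 and WT Tm 2 or 3, with values of -0.96 to -0.64 and adjusted p of 0.0599 to 0.145. The bzip17/28 (-0.75 ± 0.25, edgeR adjusted p = 0.0756) and s1p/s2p (-0.82 ± 0.25, adjusted p = 0.08) differences were not called.

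The first set of comparisons addresses how WT seedlings answer different inducers. Tm raised 6 of the 6 tested genes, with 8.68% of all genes tested called higher, and their median change was 2.02, against 0.03 over all genes tested. SEC61G1 and SEC61B2 passed the filter only through libraries given an inducer, since their mock libraries held at most 2.77 and 3.46 CPM. Their place among the 6 and in this median was therefore partly set by being high with Tm or DTT. The same limit holds for the counts out of 6 and the medians of the 6 below. Without WT Tm 2 the SEC61G1 call was lost (1.74, adjusted p = 0.152), and the SPC25 call was lost without either library named above. Both calls were also lost in limma-voom with a spread per group (SEC61G1 3.28, adjusted p = 0.0935, and SPC25 0.66, adjusted p = 0.0819). DTT raised 4 of 6 (SEC61G2, SEC61B2, SPC22A and SPC22B), with 8.93% of all genes called higher and a median of 1.65 against -0.02. AZC raised SEC61G2 alone, 1 of 6, with 3.28% of all genes called higher and a median of 0.72 against 0.00. Between inducers, Tm exceeded AZC in 6 of 6 (18.5% of all genes called in either direction), DTT exceeded AZC in 4 of 6 (17.5%), and Tm differed from DTT in 1 of 6, SEC61G1 (24.1%), a call that was lost without WT Tm 2. The 4 genes with called rises under both Tm and DTT did not differ between these inducers beyond the test. These comparisons share the WT mock or the treated libraries.

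Root markers moved with the inducers. Their summed level was 10.3 to 21.2 CPM in WT DTT, against 132 to 156 in WT mock, and 8 of the 8 tested fell (median -3.09). With AZC 6 of 8 fell and 1 rose, with sums of 77.9 to 103 CPM, and with Tm 1 of 8 fell, with sums of 128 to 148 CPM. Of the 6 shoot markers none was called by edgeR with any inducer in WT, and 1 had an unadjusted p under 0.05 with each. Their part in the values above was not tested, and in whole seedlings fewer cells of a type and less RNA per cell cannot be told apart.

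**Figure D4:**
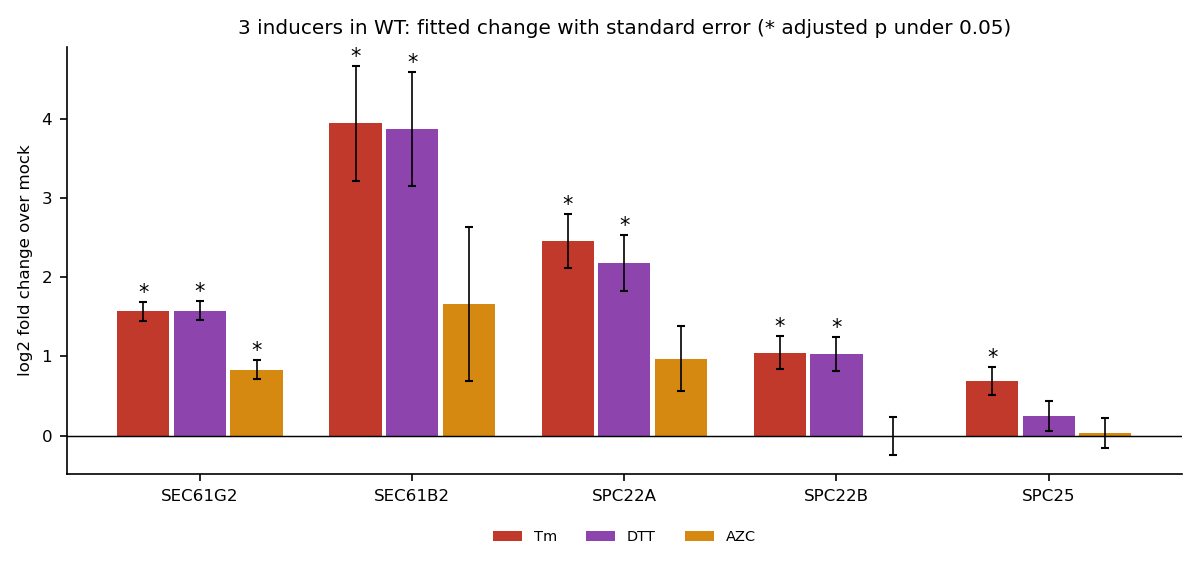
Log2 fold change over WT mock (bars, with standard error) of 5 genes in WT with Tm, DTT and AZC, 3 libraries a group, an asterisk marking an adjusted p under 0.05. The Tm and DTT bars of SEC61G2 are 1.57 and 1.58 and its AZC bar is 0.83, and SPC25 has an asterisk for Tm only. SEC61B2 had enough counts to be tested only through libraries given an inducer.

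The next set addresses how the Tm response depends on the factors and proteases missing in the double mutants. Tm raised 4 of the 6 genes in bzip17/28 (4.59% of all genes called higher, median of the 6 genes 1.81 against 0.02 over all genes) and 4 of 6 in s1p/s2p (1.81% called higher, median 1.00 against 0.00), each time SEC61G2, SEC61B2, SPC22A and SPC22B. It raised 1 of 6 in bzip28/60 (0.887% called higher, median 0.35 against 0.01) and 1 of 6 in bzip17/60 (1.04% called higher, median 1.37 against 0.01), both times SEC61G2. The s1p/s2p count was 2 without s1p/s2p mock 1, when the SEC61B2 and SPC22B calls were lost.

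Tested as differences from the WT response, 4 of 6 were called lower in bzip28/60 (SEC61G2, SPC22A, SPC22B and SPC25, with 4.26% of all genes called in either direction). In bzip17/60 1 of 6 was called, SPC25 (3.79%), and 0 of 6 were called in bzip17/28 (4.14%) and in s1p/s2p (1.9%). At an unadjusted p under 0.05 3 of 6 passed in bzip17/28 and 2 of 6 in s1p/s2p in edgeR, and limma-voom and DESeq2 also called 0 in both. Between mutants, bzip28/60 responded less than bzip17/28 in 3 of 6 (SEC61G2, SPC22A and SPC22B, 2.47% of all genes called), less than bzip17/60 in 1 of 6 (SEC61G2, 0.248%), and bzip17/60 less than bzip17/28 in 1 of 6 (SPC22B, 1.85%). The s1p/s2p response was below that of bzip17/28 in 1 of 6 (SEC61G2, 0.63%). Without WT Tm 3 the bzip28/60 count against WT was 2, since the SPC22A and SPC25 calls were lost. In limma-voom with a spread per group the SPC25 call in bzip28/60 was also lost (-0.92, adjusted p = 0.0535). The bzip17/60 count against WT was 0 without any of the 8 libraries named for SPC25, and against bzip17/28 it was 0 without bzip17/60 mock 2. These differences share the WT or bzip17/28 libraries.

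The summed level of the root markers was also lower with Tm than with mock in every mutant. They summed to 95.8 to 138 CPM with Tm and 190 to 215 with mock in bzip17/28, where 4 of 8 fell (median log2 change -1.04). In bzip28/60 they summed to 102 to 104 CPM with Tm and 140 to 199 with mock, and 1 of 8 fell (median -0.90). In bzip17/60 the sums were 49.2 to 79.1 CPM with Tm and 130 to 138 with mock, and 3 of 8 fell (median -1.18). In s1p/s2p they were 26.1 to 47 CPM with Tm and 58.5 to 81.4 with mock, and 3 of 8 fell (median -1.32). In WT 1 of 8 fell (median -0.16). Tested as differences from the WT response, 1 of 8 was lower in each mutant. The part of these markers in the Tm responses above was not tested.

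**Figure D5:**
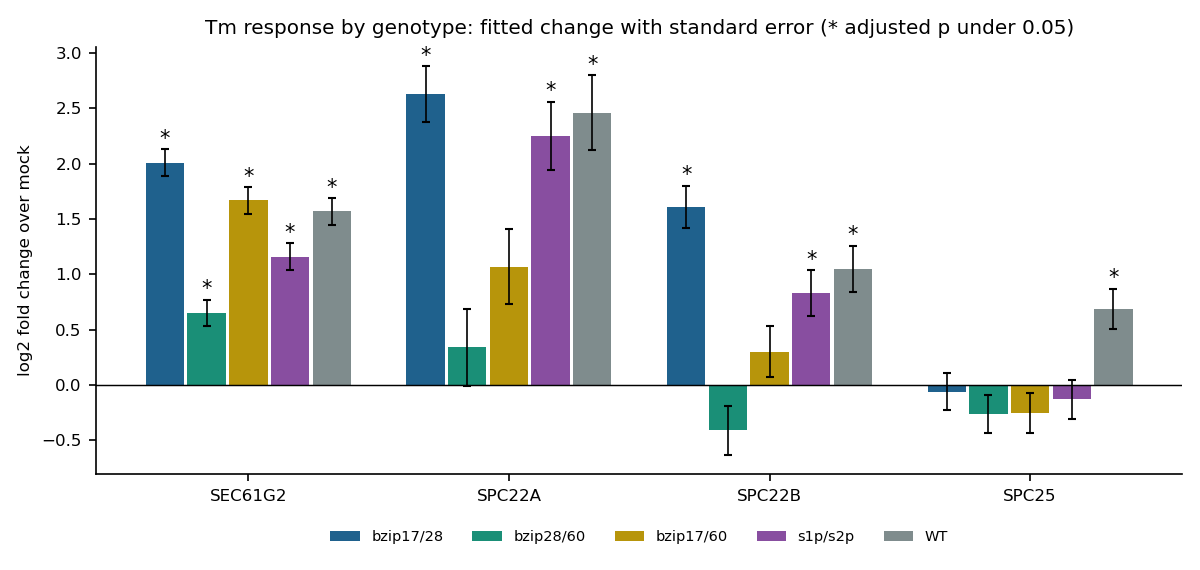
Log2 fold change of Tm over mock (bars, with standard error) of 4 genes in the 4 double mutants and WT, 3 libraries a group, an asterisk marking an adjusted p under 0.05. The bzip28/60 bars are 0.65, 0.34, -0.41 and -0.26, below the WT bars of 1.57, 2.46, 1.05 and 0.69.

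Without stress, SEC61G2 was the called gene in bzip17/28 (1 of 6 lower, 18.1% of all genes called in either direction), bzip17/60 (1 of 6 lower, 8.31%) and s1p/s2p (1 of 6 lower, 7.39%), and 0 of 6 were called in bzip28/60 (5.35%), where edgeR gave 0 at an unadjusted p under 0.05 and DESeq2 and limma-voom also called 0. The bzip17/60 call was lost without any of the 4 libraries named for SEC61G2. Compared directly under Tm, a contrast added after the data were seen, all 6 genes were lower than in WT in bzip28/60 (23.6% of all genes called in either direction) and in bzip17/60 (35%), 3 of 6 were lower in s1p/s2p (SEC61G2, SEC61G1 and SPC25, 31.2%), and in bzip17/28 SPC22A was higher and SEC61G1 lower (35.4%). In bzip28/60 SEC61G2 averaged 339 ± 24.6 CPM, against 762 ± 57.6 in WT Tm (SD, n = 3, log2 difference -1.17 ± 0.12, edgeR adjusted p = 7.25e-10). SPC22B averaged 14.1 ± 0.616 CPM, against 43.9 ± 8.12 (-1.64 ± 0.21, adjusted p = 2.55e-07). Without WT Tm 3 the SPC25 calls in bzip28/60 (-0.33, adjusted p = 0.207) and s1p/s2p (-0.32, adjusted p = 0.213) and the SPC22A call in bzip17/60 (-0.58, adjusted p = 0.139) were lost. The SPC25 call in s1p/s2p was also lost without s1p/s2p Tm 2 (-0.47, adjusted p = 0.0735). Without WT Tm 2 the SEC61B2 call in bzip17/60 was lost (-1.11, adjusted p = 0.15), and the SEC61G1 differences of -6.64 to -5.51 became -3.17 to -2.03 and stayed called. The SEC61G2 call in bzip17/60 was lost without WT Tm 1 (-0.30, adjusted p = 0.0602), WT Tm 2 (-0.32, adjusted p = 0.0633) or bzip17/60 Tm 2 (-0.28, adjusted p = 0.106). This call was also lost in edgeR with library size alone (adjusted p = 0.0604), no filter (0.151) or the comparison's own libraries (0.23), and in limma-voom (0.0729). The SPC25 calls in bzip28/60 and s1p/s2p were lost with the comparison's own libraries (edgeR, adjusted p = 0.126 and 0.125) and in limma-voom (0.0569 and 0.0558).

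Of 25 other genes of the pathway (further Sec61 subunits, SEC63-type proteins, signal peptidase, the signal recognition particle that brings ribosomes to the channel, and translocon-associated proteins) 14 were tested. With Tm in WT 3 rose and none fell, with 8.68% of all genes tested called higher. The median change of the 14 was 0.08, against 0.03 over all genes tested. The 3 were AT1G52600 and the signal recognition particle genes AT1G67680 (0.56 ± 0.20, edgeR adjusted p = 0.0435) and AT5G61970 (0.88 ± 0.28, adjusted p = 0.0263). Of the 3 further Sec61 subunit genes 2 were tested, and 0 were called with Tm in WT. Among them, AT3G48570 averaged 49 ± 19.8 CPM in WT Tm, against 42.4 ± 4.48 in WT mock (SD, n = 3). AT1G52600, which RefSeq annotates as a peptidase of the signal peptidase family, rose with Tm by 0.66 ± 0.14 (edgeR, adjusted p = 0.000979) and with DTT by 1.19 ± 0.14 (adjusted p = 1.08e-08). Its Tm level was below its DTT level by -0.52 ± 0.13 (edgeR, adjusted p = 0.00349). The SEC63-type gene ATERDJ2B (AT4G21180), whose protein recruits the chaperone BiP to the channel, rose with DTT by 1.33 ± 0.31 (edgeR, adjusted p = 0.00181). Tm raised it in bzip17/28 by 1.89 ± 0.24 (adjusted p = 1.13e-07), and its response was below that by -2.05 ± 0.40 in bzip28/60 (adjusted p = 0.001) and by -1.61 ± 0.38 in bzip17/60 (adjusted p = 0.0109). Of the 14 genes 2 rose with DTT in WT, 2 with Tm in bzip17/28 (the SEC63-type gene and AT1G52600) and 1 with Tm in bzip17/60 (AT1G52600). Over all genes tested 8.93, 4.59 and 1.04% were called higher in these comparisons, in turn. In edgeR 0 passed with AZC in WT and with Tm in bzip28/60 and s1p/s2p, against 0, 2 and 4 at an unadjusted p under 0.05. There 3.28, 0.887 and 1.81% of all genes tested were called higher.

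For each tested gene the 3 genes with the most similar pattern were taken by Pearson's r over the 12 group means of log2 CPM, as a description with no test. SEC61G2 was followed by AT1G27330, which RefSeq annotates as the ribosome-associated membrane protein RAMP4 (r = 0.97), AT5G47420 (r = 0.97) and the nucleotide sugar transporter UTR1 (r = 0.96). SEC61B2 was followed by AT5G54860 (r = 0.99), the disulfide isomerase PDIL1-2 (r = 0.99) and POD1 (r = 0.98). SPC22A was followed by AT3G51980 (r = 0.98), the Bax inhibitor BI1 (r = 0.97) and AT4G29960 (r = 0.97). SPC22B was followed by EBS5, also named HRD3A, of the degradation machinery (r = 0.99), AT5G23575 (r = 0.98) and AT3G62200 (r = 0.98). SPC25 had no neighbour above r = 0.88 (AT3G27240), followed by CLPP5 (r = 0.87) and AT5G17840 (r = 0.86). SEC61G1 was followed by SKP1 (r = 0.97), AT1G15270 (r = 0.95) and AT5G42850 (r = 0.95). Its WT Tm mean of 64.2 CPM includes the 180 CPM of WT Tm 2, and r was not recomputed without that library. All of these values share the same 36 libraries.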

How the data were processed

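The authors deposited whole-number counts of reads per transcript model for each of the 36 libraries. Per the submitters' processing notes, reads went through Trim Galore 0.2.8 and TopHat2 2.1.1, then HTSeq 0.6.0, with SAMtools also named. Build, annotation release and strand setting are not given in the sources used here. Reads shared by models of one locus had been set aside as ambiguous, and 91.1 to 93.6% of the counts came from loci with 1 model. Rows naming no gene (no feature, 2.69 to 6.32%, and ambiguous) stayed out of library sizes and tests. WT libraries differed from the mutants here. No-feature reads were 4.01 to 4.49% in WT mock and 3.24 to 6.32% over all WT libraries, against 2.69 to 3.48% in the mutants. WT Tm 2 held the 6.32%. Assigned counts were 1278322 to 1934709 in WT and 1645590 to 2810235 in the mutants. The part of this in the comparisons with WT was not tested.

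Counts were summed over the models of each of 37336 loci (37051 matched in the RefSeq table of TAIR10.1). Loci were kept by filterByExpr with a minimum count of 10, scaled by TMM and tested by edgeR 4.0.16 (R 4.3.3) with its quasi-likelihood test, in 1 fit of 36 libraries with a coefficient per group and 24 residual degrees of freedom. This fit used the same spread for all groups, although the biological coefficient of variation was 28.2% among the WT Tm libraries. The p-values of comparisons with WT Tm may therefore be too small. Benjamini-Hochberg adjustment ran over 10480 loci, and an adjusted p under 0.05 was called. The procedure was tested on simulated data. The simulated counts had the same spread in all groups, so they do not check the test for the wider spread of WT Tm. There were 22 comparisons planned and 4 added after the data were seen (each mutant against WT under Tm). Alternatives were other scaling, no filter, a block, loci with 1 model, smaller fits, DESeq2 1.42.0, limma-voom (limma 3.58.1) and leaving out each library. All 10 genes are named, with the 3 genes most like each tested one. The genes and lists were chosen with earlier results of these data known. Whether the repeats came from separate cultures is not in the labels, and the p-values then reflect only how far these libraries spread, which may be technical. No protein sequences were used here.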

Additional observations from a re-analysis of the deposited data

Results flagged for a closer look

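Differences between the Tm responses of 2 genotypes passed the test in 11 cases, all on the log2 scale from edgeR's quasi-likelihood test with Benjamini-Hochberg adjustment. The bzip28/60 response was below that of WT for SEC61G2 (-0.93), SPC22A (-2.11), SPC22B (-1.47) and SPC25 (-0.95). The bzip17/60 response was below that of WT for SPC25 (-0.93). Against other mutants, the bzip28/60 response was below that of bzip17/60 for SEC61G2 (-1.02) and below that of bzip17/28 for SEC61G2 (-1.37), SPC22A (-2.28) and SPC22B (-2.03). The bzip17/60 response was below that of bzip17/28 for SPC22B (-1.32), and the s1p/s2p response was below that of bzip17/28 for SEC61G2 (-0.85). These cases share libraries. The SPC25 and SPC22A differences from WT and the SPC22B difference between bzip17/60 and bzip17/28 each lost the call without at least 1 library. With the comparison's own libraries alone, bzip28/60 differences from WT were not called for SPC22A (edgeR, adjusted p = 0.0865), SPC22B (adjusted p = 0.0553) and SPC25 (adjusted p = 0.128).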

How the results depend on the processing

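Of 63 called values, 63 kept their call with relative log expression factors, the replicate block and DESeq2, 61 with library size alone, 60 with no filter and 52 with limma-voom. With the comparison's own libraries 44 of 55 did, and at loci with 1 model 37 of 37. Leaving out 1 library kept 404 of 444, weakened 39 and reversed 1 (SEC61G1, Tm against DTT, -0.01; the range over libraries left out was -0.01 to 4.08). With the repeat number as a block, SEC61G2 rose with Tm in WT by 1.58, and no call was changed. Among the pairs of groups checked, which did not include every pair, none had all 3 same-number correlations over 0.1, and the numbers were not taken to pair the samples. With library size alone the all-gene median shifted by over 0.1 in 3 of 26 comparisons (at most 0.111).

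Counts of the tested genes called moved as follows. At loci with 1 model, where the genes with several models are not measured, they were 3 for Tm, 2 for DTT, 3 for Tm against AZC, 2 for DTT against AZC and 0 for Tm against DTT in WT, 2 for Tm in bzip17/28 and in s1p/s2p, and under Tm 1, 3 and 3 in bzip17/28, bzip28/60 and bzip17/60. With the comparison's own libraries they were 2 for Tm, 0 for Tm against DTT and 3 for Tm against AZC in WT, 1 for the bzip28/60 and 0 for the bzip17/60 response against WT, 2 for bzip17/60 against bzip17/28, 2 for bzip17/28 under mock, and 1 each for bzip17/28 and s1p/s2p under Tm. With limma-voom they were 0 for Tm against DTT, 3 for Tm against AZC, 0 for the bzip17/60 response against WT and 2 for bzip17/60 against bzip17/28. With no filter they were 3 for Tm in bzip17/60, 1 and 0 for the bzip17/28 and bzip17/60 responses against WT, 2 for bzip17/60 against bzip17/28, 2 and 0 for bzip17/28 and bzip17/60 under mock, and 4 for bzip17/28 under Tm. Library size alone gave 0 for the bzip17/60 response and 2 for bzip17/28 under mock, and DESeq2 gave 2 for bzip17/60 against bzip17/28. In the fits with the comparison's own libraries some genes fell under the filter, and 55 of the 63 called values were tested there. For Tm in WT the genes not tested were SEC61G1 and SEC61B2, while SPC22B and SPC25 were tested and not called. Apart from this and the 1-model loci, the cause was not tested.

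Leaving out 1 library gave 5 to 6 genes for Tm, 0 to 2 for Tm against DTT, 4 to 6 for Tm against AZC and 3 to 4 for DTT against AZC in WT, and 2 to 4 for Tm in s1p/s2p. It gave 0 to 1, 2 to 4, 0 to 2 and 0 to 1 for the bzip17/28, bzip28/60, bzip17/60 and s1p/s2p responses against WT and 0 to 2 for bzip17/60 against bzip17/28. It gave 1 to 2 and 0 to 1 for bzip17/28 and bzip17/60 under mock, and 2 to 3, 5 to 6, 4 to 6 and 2 to 3 for the 4 mutants under Tm.

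Over all genes, counts with the comparison's own libraries and with limma-voom were 259 and 553 for Tm in WT (main 1775), 808 and 1102 for Tm against DTT (2530), 482 and 680 for Tm against AZC (1940) and 706 and 554 for Tm in bzip28/60 (254). For responses against WT they were 134 and 206 in bzip17/28 (434), 117 and 202 in bzip28/60 (446), 14 and 109 in bzip17/60 (397) and 7 and 30 in s1p/s2p (199; 409 with no filter, 316 with DESeq2). Between mutants they were 69 and 71 for bzip28/60 against bzip17/60 (26; 133 and 53), 629 and 580 for bzip28/60 against bzip17/28 (259), 299 and 339 for bzip17/60 against bzip17/28 (194) and 149 and 130 for s1p/s2p against bzip17/28 (66; 138 and 100). Under Tm they were 1905 and 2065 (3710), 813 and 1231 (2470), 1665 and 1879 (3668) and 1385 and 1696 (3275). Leaving out 1 library moved these all-gene counts by over 1.5 times in several comparisons. The ranges were 1003 (without WT Tm 2) to 2460 (without WT Tm 1) for Tm in WT, 363 (without WT mock 3) to 541 for AZC in WT (main 575), 1179 to 2445 for Tm against AZC (without WT Tm 2 and WT Tm 1), and 136 to 196 and 183 to 351 for Tm in bzip28/60 and bzip17/60 (main 335), lowest without bzip28/60 Tm 1 and bzip17/60 Tm 3. For responses against WT they were 269 to 1087, 238 to 1188, 160 to 1188 and 68 to 990 in bzip17/28, bzip28/60, bzip17/60 and s1p/s2p, each highest without WT Tm 1 and lowest without bzip17/28 Tm 3, bzip28/60 mock 1, WT Tm 2 and WT mock 1 in turn. They were 20 to 94 (without bzip17/60 Tm 2) for bzip28/60 against bzip17/60 and 40 (without s1p/s2p Tm 1) to 74 for s1p/s2p against bzip17/28. Under mock they were 222 to 423, 406 to 804 and 429 to 623 in bzip28/60, bzip17/60 and s1p/s2p (main 561, 871 and 774), lowest without WT mock 1, bzip17/60 mock 2 and WT mock 1, and under Tm 1504 (without WT Tm 2) to 2845 in bzip28/60. SEC61G1, SEC61B2 and the 4 untested genes had few bases in only 1 model and low counts. Their values are limited by the low counts, and the part of the models in this was not tested.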

Other observations

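Among all genes tested, SEC61G1 in WT Tm 2 was the only one in any of the 36 libraries that stood at least 5-fold above the next library with at least 20 CPM. This count was chosen after its values were seen, and it is given with no explanation.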
